A study of Mus musculus with 4 samples.

Results

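B cells of cluster 0 are the 1083 cells that the authors annotated as B cells and placed in cluster 0, out of 5794 deposited blood cells and 3130 annotated B cells. Membership was read from the deposited annotation and cluster number. Another 16 cells of that cluster were annotated as plasmablasts and were left out. The cells came from peripheral blood mononuclear cells of 4 female wild-type C57BL/6 mice, 3.2 ± 0.3 months of age as given for the groups. The NTP-treated mice Maus3_2 and Maus6 had their left ear exposed for 10 min to non-thermal plasma (NTP), which is ionized argon near body temperature from a handheld jet, and their blood was taken 120 min later. The untreated mice Maus2_2 and Maus4_2 were sampled 120 min after the onset of anaesthesia. All 4 mice were anaesthetized with ketamine and xylazine, so these drugs are common to both groups. The time under them is not, since in NTP-treated mice it also covered the 10 min of exposure. That difference in time cannot be told apart from treatment. Each mouse gave 1 library from a droplet method that reads the 3′ end of RNA and counts molecules by unique molecular identifiers (UMIs).

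Circulating B cells of a young mouse are mostly naive follicular cells that travel between blood and lymphoid follicles. They carry a B cell receptor made of membrane IgM and IgD with the signalling chains encoded by Cd79a and Cd79b, and they present antigen on MHC class II. Transitional cells newly arrived from bone marrow, marginal zone cells, B-1 cells and memory cells are the other B cell states, each with marker genes of its own. Cluster 0 was set beside the other 2040 annotated B cells of clusters 1 (996 cells), 2 (964 cells) and 10 (80 cells), and 7 annotated B cells elsewhere were not used in these comparisons. Since the authors made the clusters from these same genes, differences between clusters are given as descriptions without a test.

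Cluster 0 held 255 and 372 cells in the NTP-treated Maus3_2 and Maus6, against 143 and 313 cells in the untreated Maus2_2 and Maus4_2. Among a mouse's B cells this was 30.6% (Wilson 95% interval 27.6 to 33.8%) and 38.8% (35.8 to 42.0%) in the NTP-treated mice. In the untreated mice it was 28.7% (24.9 to 32.8%) and 37.2% (34.0 to 40.5%). The intervals cover counting error only. The groups overlapped, and the mean difference of 1.76 percentage points had p = 0.67 in an exact two-sided permutation test over mice, which cannot go below 0.33 with 2 mice against 2. The summed counts of cluster 0 were 1023157 and 1289698 UMIs in the NTP-treated mice and 547443 and 839208 UMIs in the untreated mice. The median cell had 3909 and 3326.5 UMIs in NTP-treated mice and 3559 and 2582 UMIs in untreated mice, with 1549 and 1377 genes against 1440 and 1158 genes. The median of the deposited mitochondrial percent was 6.03 and 5.88 in NTP-treated mice, against 6.07 and 5.72 in untreated mice. Neither depth measure nor the mitochondrial percent separated the groups (exact permutation p = 0.67, 0.67 and 1). Of all deposited barcodes, 4 occurred in more than 1 library, and 0 were shared between libraries within cluster 0.

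The B cell label held. Cd79a had 2490 and 2379 CPM (UMIs divided by the summed UMIs of those cells in that mouse, times 1000000) in the NTP-treated mice and 2190 and 2269 CPM in the untreated mice, and a UMI in 99.9% of cluster 0 cells. Ms4a1, which encodes CD20, had 517 ± 35.5 CPM over the 4 mice (SD, n = 4) and a UMI in 77.0% of the cells. Ighd, the IgD heavy chain, had 737 ± 36.0 CPM and a UMI in 85.4%. In CD4+ T cells, which should lack these genes and are deeper (median 4429 UMIs per cell, against 3268 in cluster 0), a UMI of Cd79a, Ms4a1 and Ighd was found in 2.70%, 0.923% and 0.725% of cells. The 13 T cell markers summed to at most 39.5 CPM in any mouse, with 1 of them (Cd8a) at 0, whereas their sum in CD4+ T cells was at least 5190 CPM in every mouse. The 9 NK cell markers summed to at most 8.34 CPM in any mouse. Other lists were not near 0. The 8 dendritic cell markers found summed to 230 to 259 CPM by mouse. Their sums were 253 to 287 CPM in the other B cells and 63.8 to 70.6 CPM in CD4+ T cells. The 10 monocyte and macrophage markers summed to 56.6 to 83.7 CPM, against 63.4 to 82.4 CPM and 47.3 to 55.9 CPM in those cells.

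Genes of mature follicular B cells were expressed throughout. Fcer2a, which encodes the low-affinity IgE receptor CD23, had 332 ± 30.5 CPM (SD, n = 4) and Cr2, the complement receptor CD21, 109 ± 5.20 CPM. Klf2, a transcription factor that controls lymphocyte trafficking, had 869 ± 98.3 CPM. All 12 genes of this list exceeded 50 CPM in cluster 0 or in the other B cells. Their median log2 ratio of cluster 0 to the other B cells was -0.02, with 0 higher and 1 lower in all 4 mice. Ratios between clusters were taken within each mouse on CPM plus 5 and then averaged over mice.

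Some markers of the other B cell states were low or absent, whereas other members of the same lists were not. At least 50 CPM in cluster 0 or in the other B cells was reached by 7 of 13 transitional, 4 of 12 marginal zone, 3 of 13 B-1 and age-associated and 1 of 16 germinal centre and memory genes. Cd93, a surface marker of transitional cells, had 3.91 and 5.43 CPM in the NTP-treated mice and 9.13 and 4.77 CPM in the untreated mice, and a UMI in 1.66% of cells. Vpreb3 and Ly6d, genes of early B lineage cells that stay on in circulating ones, had 185 ± 22.9 and 1591 ± 165 CPM. Among the marginal zone genes, S1pr3, a receptor that holds cells in that zone, had a UMI in 0 of 1083 cells, which allows a share of cells with a UMI of up to 0.277%. Cr2, which is on this list too, had the 109 CPM given above, and Mzb1 had 196 CPM. Among the B-1 and age-associated genes, Zbtb32 and Itgax were also at 0 with the same limit, and Cd5 had 1.72 ± 1.56 CPM. The switched heavy chains Ighg2b, Ighg3 and Igha had 0.194, 0.244 and 3.16 CPM. Jchain, the joining chain of secreted antibody, was at 0 UMIs, as was Derl3. The 7 plasma cell markers found summed to 293 and 251 CPM in NTP-treated mice and 267 and 334 CPM in untreated mice. Ccna2 and Cdk1, which drive the cell cycle, were at 0 as well. The 16 cell cycle genes summed to 638 and 638 CPM in NTP-treated mice and 610 and 655 CPM in untreated mice. In the other B cells their sum was 564 to 674 CPM.

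The plot of subset genes sets these levels beside those of the other clusters. Cluster 0, 1 and 2 had similar Ighd (737, 708 and 760 CPM on average) and Fcer2a (332, 349 and 359 CPM), whereas the small cluster 10 had 301 CPM of Ighd and 86.8 CPM of Fcer2a. Ighd was higher in cluster 0 than in cluster 10 in all 4 mice, by 1.32 ± 0.34 on the log2 scale.

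**Figure D1:**
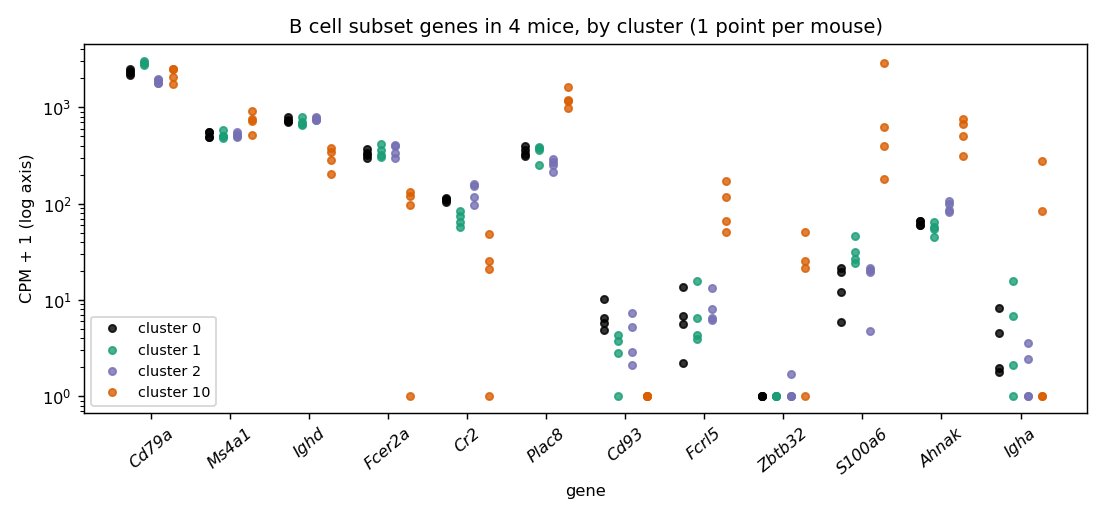
CPM plus 1 on a log axis (1 point per mouse, 4 mice) for 12 B cell subset genes in clusters 0, 1, 2 and 10. Cluster 0 lies with clusters 1 and 2 for Ighd and Fcer2a, while S100a6 averages 13.7 CPM in cluster 0 and 1024 CPM in cluster 10.

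The largest single ratios were those to cluster 10, the cluster with the fewest cells. S100a6, a calcium-binding protein, had 4.89 and 18.6 CPM in cluster 0 of the NTP-treated mice, against 620 and 397 CPM in their cluster 10. In the untreated mice it had 11.0 and 20.3 CPM in cluster 0, against 2897 and 181 CPM in cluster 10. Ahnak, a giant scaffold protein of the plasma membrane, had 61.9 CPM in cluster 0 and 559 CPM in cluster 10, and its mean log2 ratio was -3.00 ± 0.61 (SD, n = 4). Sox5, a transcription factor, had 19.5 CPM in cluster 0 and 326 CPM in cluster 10, and Fcrl5, a receptor of the Fc receptor-like family, 6.12 and 100 CPM. Of 3300 genes of at least 50 CPM in cluster 0 or cluster 10, 542 (16.4%) were higher and 366 (11.1%) lower in cluster 0 in every mouse. Cluster 10 rests on 22 and 29 cells of the NTP-treated mice and 7 and 22 cells of the untreated mice.

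Against the pooled other B cells, cluster 0 stood out little. Of 3084 genes of at least 50 CPM, 145 (4.70%) were higher and 310 (10.1%) lower in cluster 0 in all 4 mice, and 5 of these differed by at least 0.5 on the log2 scale, all of them lower. The largest mean ratio upwards was that of Ifi206, an interferon-inducible gene of the p200 family. It had 64.5 and 73.7 CPM in cluster 0 of the NTP-treated mice and 76.7 and 73.9 CPM in cluster 0 of the untreated mice, whereas the other B cells had 61.8 and 45.5 CPM and 52.5 and 48.9 CPM in the same mice. Its mean log2 ratio was 0.44 ± 0.26. Psmd13, a subunit of the proteasome, had a mean log2 ratio of 0.42 ± 0.13, Carmil1, a regulator of actin capping, 0.35 ± 0.18, and Trmt112, an activator of methyltransferases, 0.32 ± 0.06. Traf6 and Bcl10, which relay receptor signals to NF-κB, had 0.32 ± 0.34 and 0.29 ± 0.26. Ifi206, Psmd13, Traf6 and Bcl10 averaged more CPM in cluster 0 than in each of clusters 1, 2 and 10. Carmil1 averaged 63.5 CPM in cluster 0, against 23.0, 64.6 and 66.7 CPM in clusters 1, 2 and 10. Trmt112 averaged 97.7 CPM in cluster 0, against 105, 56.9 and 112 CPM in the same clusters. Spib, a transcription factor of B cells, had 84.6 CPM in cluster 0 and a ratio of 0.26 ± 0.14.

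The largest mean ratios downwards were those of S100a6 (-1.78 ± 0.96) and Ahnak (-0.67 ± 0.17), both of which are highest in cluster 10. Next came Aak1, a kinase of clathrin-mediated endocytosis, with -0.58 ± 0.17. Klf12, a transcriptional repressor, had -0.50 ± 0.36 and the adhesion molecule Alcam -0.48 ± 0.28. Aak1, Klf12 and Alcam averaged 38.9, 78.0 and 170 CPM in cluster 0. That was above cluster 1 (32.5, 49.0 and 103 CPM) and below cluster 2 (80.4, 146 and 341 CPM). Of the 15 genes with the largest mean ratios downwards, the 14 with a known genomic span had a median span of 130790 bases. It was 16676 bases for the 15 genes at the other end.

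The small differences from the pooled cells hid a position between the 2 other large clusters. In cluster 1, a median of 9.22% of a cell's UMIs fell on genes that span at least 100 kb of the genome, in cluster 0 13.3%, and in cluster 2 17.6%. By mouse, the medians of cluster 0 were 13.0% and 13.3% in the NTP-treated mice, against 13.2% and 13.5% in untreated mice. Those of cluster 1 were 9.12% and 8.96% against 9.72% and 9.47%, and those of cluster 2 were 17.1% and 17.6% against 18.03% and 17.9%. The clusters kept this order in every mouse, and the spread between mice within a cluster was far smaller than the steps between these clusters. The ranges of single cells overlapped. Of the 1083 cells of cluster 0, 240 (22.2%) lay within the range that holds the central 90% of cluster 1 cells, and 215 (19.9%) within that of cluster 2.

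Ribosomal protein genes ran the other way, with a median of 26.4% of UMIs in cluster 0, 32.4% in cluster 1 and 20.7% in cluster 2. Depth followed the same axis among these clusters, since the median cell had 3268 UMIs in cluster 0, 2677.5 UMIs in cluster 1 and 4244.5 UMIs in cluster 2. The small cluster 10 did not follow it in depth, with a median of 4951 UMIs. Its medians of 11.7% of UMIs on genes of at least 100 kb and 27.1% on ribosomal protein genes also lay between clusters 1 and 2. After each cell was thinned to 1500 UMIs, leaving out 7 cells of cluster 0 and 32 other B cells, the median number of genes was still 784 in cluster 0, 699.5 in cluster 1 and 855 in cluster 2. Without thinning it was 1362, 1058 and 1759 genes. Malat1, a nuclear RNA, took a median of 3.02% of UMIs in cluster 0, 2.47% in cluster 1 and 3.23% in cluster 2, and the deposited mitochondrial percent had medians of 5.90, 6.46 and 4.96. The part of nuclear RNA or of cell quality in the axis was not tested.

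**Figure D2:**
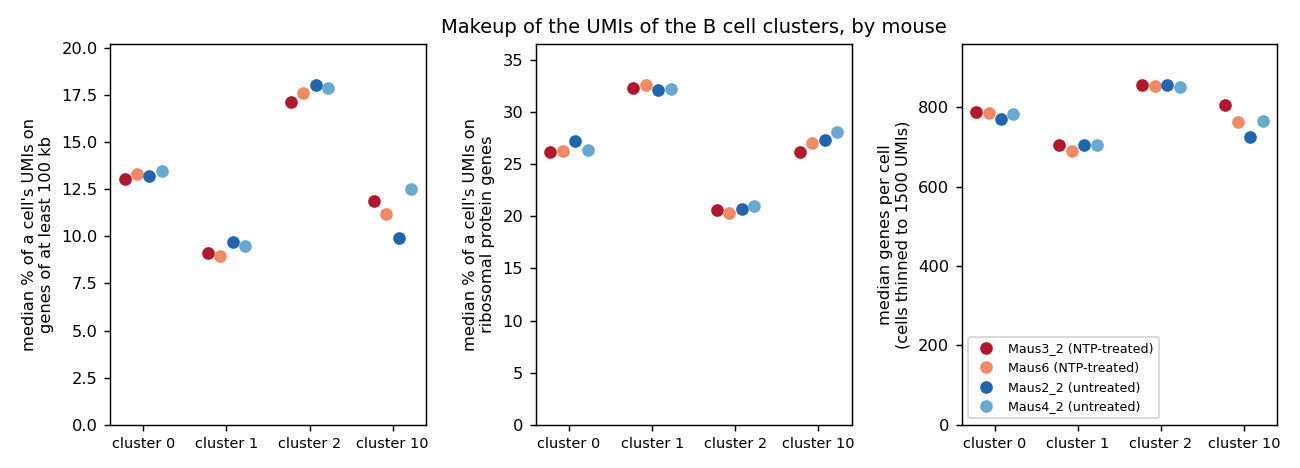
Median percent of a cell's UMIs on genes of at least 100 kb (left) and on ribosomal protein genes (middle), and median genes per cell after thinning to 1500 UMIs (right), by B cell cluster with 1 point per mouse. Cluster 0 lies between clusters 1 and 2 in each panel, at 13.3%, 26.4% and 784 genes over all its cells. So does cluster 10, at 11.7%, 27.1% and 772.5 genes.

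Gene by gene, the ratio to either neighbour followed the genomic span. Genes under 5 kb had a median log2 ratio of -0.22 to cluster 1 and 0.31 to cluster 2. Genes over 200 kb had a median of 0.59 to cluster 1 and -0.48 to cluster 2, and those of 10 to 20 kb lay near 0 (0.01 and -0.002). Across genes, Spearman's rho between span and mean log2 ratio was 0.77 for cluster 1 (2991 genes) and -0.75 for cluster 2 (3325 genes), and within single mice it was 0.54 to 0.71 and -0.65 to -0.61. Genes share their libraries and are not independent, so these are descriptions. Against cluster 1, 1382 genes of 3007 (46.0%) were higher and 405 (13.5%) lower in cluster 0 in all 4 mice. Against cluster 2, 500 of 3342 (15%) were higher and 1594 (47.7%) lower.

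**Figure D3:**
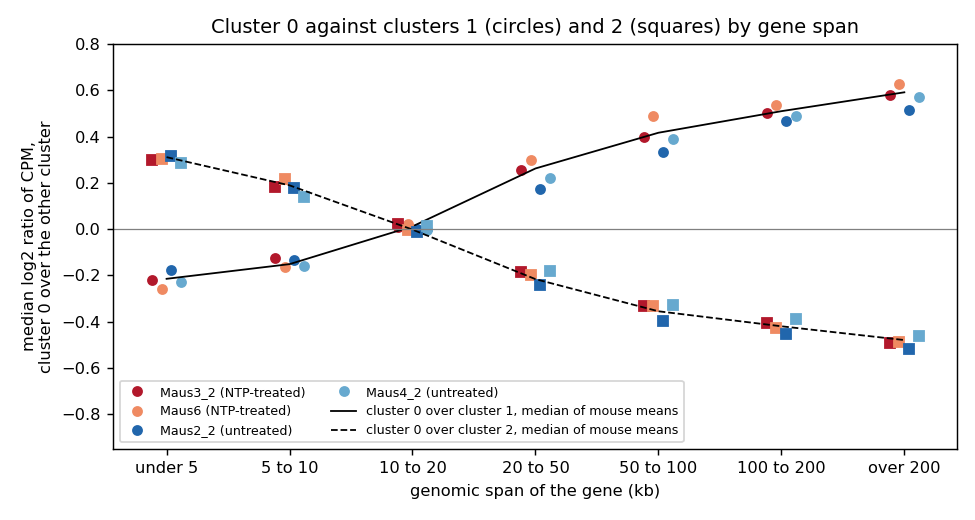
Median log2 ratio of CPM of cluster 0 over cluster 1 (circles) and over cluster 2 (squares) for genes grouped by genomic span in kb, with 1 point per mouse and lines for the median of the mouse means. The ratio to cluster 1 goes up with span, to 0.59 for genes over 200 kb, and the ratio to cluster 2 goes down, to -0.48.

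The genes with the largest ratios show the same. Carmil1 (chr13:24012344-24280795, minus strand) had 54.7 and 58.9 CPM in cluster 0 of the NTP-treated mice and 63.9 and 76.3 CPM in cluster 0 of the untreated mice. In cluster 1 it had 26.5 and 13.6 CPM and 27.8 and 23.9 CPM in the same mice, without overlap, and the mean log2 ratio was 1.32 ± 0.39. Cacna1e, a voltage-gated calcium channel, followed with 1.23 ± 0.36, and Tec, a tyrosine kinase downstream of the B cell receptor, with 1.02 ± 0.21. St6galnac3, a sialyltransferase, had 0.99 ± 0.27. Short genes were at the other end. Srp14, part of the signal recognition particle, had 78.4 CPM in cluster 0 and 116 CPM in cluster 1 (-0.54 ± 0.17), and Ndufa1, of respiratory complex I, 97.8 and 140 CPM (-0.49 ± 0.23). The interferon-induced AW112010 had -0.62 ± 0.11. The 10 highest ratios came from genes of 60363 to 526909 bases, and the 9 of the 10 lowest with a known span from genes of 2630 to 10843 bases.

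Against cluster 2, Pard3b, a cell polarity gene of 1003461 bases, was the lowest at -1.19 ± 0.44. Alcam had 170 and 154 CPM in cluster 0 of the NTP-treated mice, against 412 and 284 CPM in their cluster 2, and 179 and 176 CPM in cluster 0 of the untreated mice, against 368 and 299 CPM. Its ratio was -0.97 ± 0.22. The signalling adaptor Gab3 had -0.93 ± 0.19 and Hcrtr2, an orexin receptor gene, -0.95 ± 0.38. On the other side were Trmt112 (0.74 ± 0.19), Ndufa8 of complex I (0.67 ± 0.12), the RNA polymerase subunit Polr2f (0.57 ± 0.25) and Mzb1, an endoplasmic reticulum chaperone of antibody chains (0.53 ± 0.29).

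Gene groups of B cell function differed between these clusters as well. Of the 24 genes of the B cell receptor complex and its signalling, 17 of the 23 above the level minimum were higher in cluster 0 than in cluster 1 in all mice and 3 were lower (median 0.42), where 46.0% of all genes were higher and 13.5% lower. Against cluster 2, 4 of 24 were higher and 14 lower (median -0.33), where 15% of all genes were higher and 47.7% lower. The median span of these receptor genes was 44202 bases for the 23 and 46166 bases for the 24. All genes of 20 to 50 kb had medians of 0.26 to cluster 1 and -0.22 to cluster 2. Those of 50 to 100 kb had 0.42 and -0.36. Of the 12 MHC class II presentation genes, 1 was higher and 8 lower than in cluster 1 (median -0.29), and 7 were higher and 1 lower than in cluster 2 (median 0.18), beside the same shares of all genes. The median span of these 12 genes was 11269.5 bases, and all genes of 10 to 20 kb had medians of 0.01 and -0.002. The transcription factor genes Pax5, Ebf1 and Bach2 had log2 ratios of 0.64, 0.43 and 0.70 to cluster 1 and of -0.47, -0.40 and -0.58 to cluster 2. The compact genes Cd79a and Cd74, the invariant chain, had -0.31 and -0.39 to cluster 1 and 0.32 and 0.33 to cluster 2. Ms4a1 and Ighd had -0.01 and 0.06 to cluster 1 and -0.01 and -0.04 to cluster 2.

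Under treatment, summed cluster 0 counts per mouse were compared with edgeR's quasi-likelihood test, the mouse being the replicate. No source says whether the mice shared a processing day. Of 7616 genes tested, 1 (0.0131%) passed an adjusted p of 0.05, and it was lower in NTP-treated mice. At an unadjusted p under 0.05 there were 359 genes (4.71%), of which 189 (2.48%) had higher and 170 (2.23%) lower levels in NTP-treated mice. Both NTP-treated mice lay above both untreated mice for 1278 genes (16.8%) and below them for 1272 (16.7%). The common biological coefficient of variation was 0.0810. The count past the adjusted threshold was 10 without Maus3_2, 3 without Maus6, 7 without Maus2_2 and 10 without Maus4_2, and 9 without a filter on low counts.

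The gene was Gm42418 (chr17:39846958-39848788, plus strand), annotated as a long noncoding RNA and known for its overlap with a ribosomal RNA repeat. In TMM-scaled CPM, used for all levels by treatment, it had 16004 and 13252 in NTP-treated mice, against 22370 and 19446 in untreated mice. The groups did not overlap, and it fell by 0.52 on the log2 scale (log2 fold change -0.52, SE 0.09, edgeR adjusted p = 0.0421). The direction was the same in cluster 1 (log2 fold change -0.45, edgeR adjusted p = 0.00986) and in cluster 2 (-0.37, edgeR adjusted p = 0.776). Unscaled CPM in CD4+ T cells were 17354 and 14764 in NTP-treated mice and 21737 and 19472 in untreated mice, and in CD8+ T cells 18044 and 13675 against 21803 and 18556. The difference in its response between cluster 0 and the other B cells had an edgeR adjusted p of 0.941. It was past the threshold in 8 of 11 alternative settings, with adjusted p from 3.75e-28 to 0.897. With equal cell numbers and with thinned cells it missed the threshold (edgeR adjusted p = 0.0765 and 0.0555) at log2 fold changes of -0.54 and -0.55. Without Maus6 the log2 fold change was -0.38 (edgeR adjusted p = 0.897).

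The remaining genes with the smallest p did not pass the adjusted threshold. Dhx57, a putative RNA helicase gene, had 88.6 and 85.6 CPM in NTP-treated mice, against 45.6 and 47.2 CPM in untreated mice (log2 fold change 0.90, SE 0.21, edgeR adjusted p = 0.555). Its log2 fold change was 0.50 with thinned cells, and it was 0.31 in cluster 1 and -0.02 in cluster 2. Xpa, a DNA damage sensor of nucleotide excision repair, had 70.9 and 69.1 CPM against 39.9 and 38.7 CPM. Ifngr1, a chain of the interferon-gamma receptor, had 75.8 and 80.9 CPM in NTP-treated mice and 49.4 and 43.5 CPM in untreated mice. Among the others with positive values were Metap1 (1.52), Piezo1, a mechanosensitive channel (1.19), Emb (1.35) and Ubl7 (0.98), where the value is the log2 fold change. Gm43305 (0.78) and Gm26839 (2.49) are transcripts known only by number, and Gm26839 had 0 UMIs in Maus2_2 and 3 in Maus4_2, so its value depends on the prior count and was 6.63 without Maus4_2. Hsp90ab1, a heat shock protein gene, had 509 and 727 CPM in NTP-treated mice and 450 and 444 CPM in untreated mice. Maus6 stood above the 3 other mice, and without it the log2 fold change was 0.19, against 0.47 with all mice.

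On the other side, Cd86, a costimulatory ligand that activated B cells show to T cells, had 124 and 147 CPM in NTP-treated mice, against 196 and 189 CPM in untreated mice (log2 fold change -0.49, SE 0.15, edgeR adjusted p = 0.968). With equal cell numbers its log2 fold change was -0.22, and it was -0.02 in cluster 1 and 0.15 in cluster 2. Slc9a3r1, a scaffold of membrane proteins, had 15.7 and 11.8 CPM against 34.2 and 32.7 CPM. Arhgef2, an activator of RhoA, had 19.7 and 15.7 CPM in NTP-treated mice and 41.8 and 36.3 CPM in untreated mice. Blm, a DNA helicase, had -1.38, Tm9sf4 -1.14, Reps1 -0.64 and Arcn1, a coat protein of transport vesicles, -0.59 as log2 fold change. Lars2, the mitochondrial leucyl-tRNA synthetase, had 423 and 452 CPM in NTP-treated mice, against 690 and 514 CPM in untreated mice, and its log2 fold change was -0.45, and -0.24 without Maus2_2. In clusters 1 and 2 it was -0.44 and -0.46. Gm11808 had 176 and 185 CPM against 211 and 386 CPM, and Maus4_2 stood above the 3 other mice. Its log2 fold change was -0.77, and -0.23 without Maus4_2. None of these 9 genes passed the adjusted threshold (edgeR adjusted p from 0.277 to 0.968).

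**Figure D4:**
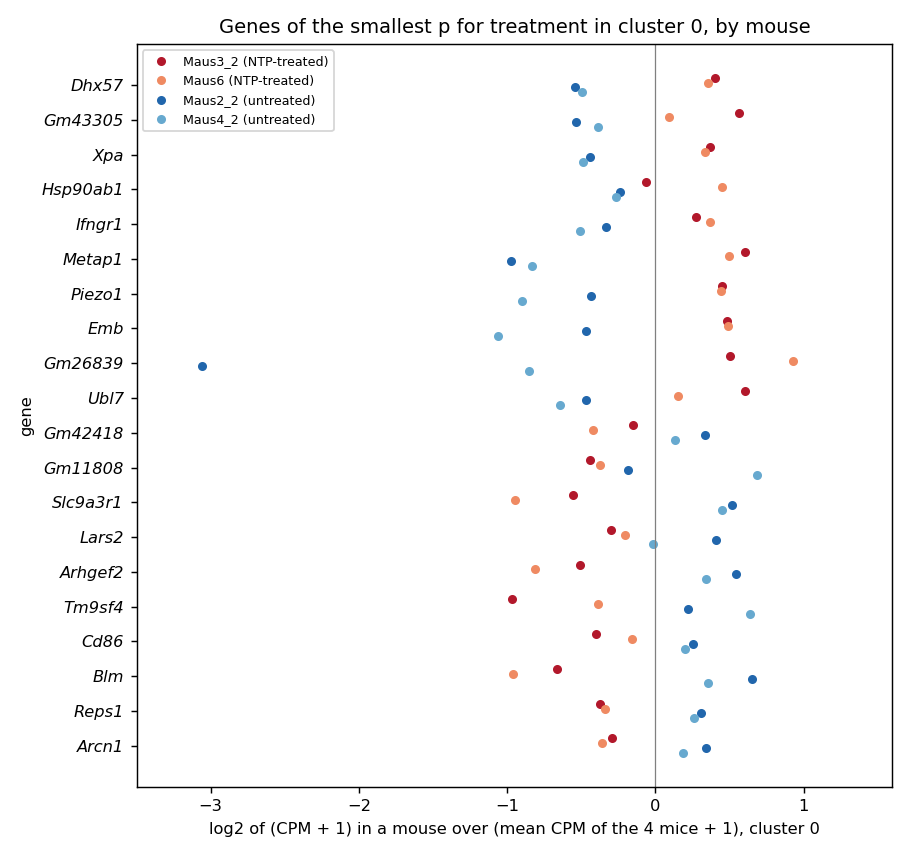
Level of the 20 genes with the smallest p for treatment and no overlap between groups, as log2 of a mouse's CPM plus 1 over the mean of the 4 mice plus 1, in cluster 0. Each point is 1 mouse, and Gm42418 is the gene past the adjusted threshold.

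Medians of gene groups by function are given beside that of all genes tested, which was 0.00 on the log2 scale. Of 18 lists with at least 5 tested members, 14 changed the sign of their median in at least 1 of 5 alternatives, so the signs of these small medians were not stable. The 24 genes of the B cell receptor complex and signalling had a median log2 fold change of 0.02, with 0 at p under 0.05. Cd79a had 2508 and 2410 CPM in NTP-treated mice and 2279 and 2303 CPM in untreated mice, and the receptor kinase Syk 1203 and 1051 CPM against 1144 and 1077 CPM. The 12 MHC class II genes had a median of 0.01, with 0 at p under 0.05. H2-Aa had 3376 and 3411 CPM in NTP-treated mice, against 3319 and 3331 CPM in untreated mice.

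The 13 immediate early genes tested, which respond within minutes to stimulation and handling, had a median of 0.09 and 0 at p under 0.05. The 18 B cell activation genes had a median of 0.07, with 0 higher and 3 lower at p under 0.05, against 2.48% and 2.23% of all genes. Of the 18, 11 had a positive log2 fold change, and both NTP-treated mice lay above both untreated mice for 7 and below them for 3, against 16.8% and 16.7% of all genes. The 3 at p under 0.05 were Cd86, Tnfaip3, an inhibitor of NF-κB, at 19.7 and 12.6 CPM in NTP-treated mice against 51.3 and 16.9 CPM in untreated mice, and Nfkb2 at 30.5 and 36.1 CPM against 45.6 and 53.2 CPM. The groups overlapped for Tnfaip3 and did not overlap for Cd86 and Nfkb2. Tnfaip3 and Nfkb2 were picked after their values were seen. The 10 heat shock and dissociation stress genes had the largest of these medians, 0.19, with 1 (Hsp90ab1) at p under 0.05.

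The 18 oxidative stress genes had a median of -0.04, with 0 at p under 0.05, and Prdx1, a peroxiredoxin, had 126 and 121 CPM in NTP-treated mice against 144 and 137 CPM in untreated mice. The 12 glucocorticoid response genes had a median of -0.05 and 0 at p under 0.05. Of the 15 interferon response genes (median 0.02), Zbp1 was at p under 0.05, against 2.48% of all genes in that direction. It had 32.5 and 16.5 CPM in NTP-treated mice and 17.1 and 9.68 CPM in untreated mice, with overlap. Of the 14 p53 and apoptosis genes (median -0.01), Mdm2, the ubiquitin ligase of p53, had 44.3 and 44.0 CPM in NTP-treated mice and 60.8 and 61.7 CPM in untreated mice. Zbp1 and Mdm2 were also picked after their values were seen. None of these genes passed the adjusted threshold in edgeR.

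Among the genes of B cell state, Klf2 had 1003 and 905 CPM in NTP-treated mice, against 846 and 785 CPM in untreated mice (log2 fold change 0.23, SE 0.11, edgeR adjusted p = 0.995). It was the only 1 of 12 follicular genes at p under 0.05, against 2.48% of all genes in that direction. Vpreb3 had 166 and 168 CPM in NTP-treated mice and 215 and 207 CPM in untreated mice (log2 fold change -0.33, SE 0.14, edgeR adjusted p = 0.995). Ighd, Cr2 and Bach2 had log2 fold changes of 0.05, -0.01 and -0.07.

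The study also followed microRNAs, and named 15 genes as targets of miR-223-3p or miR-451a. A microRNA lowers its targets by pairing its seed, bases 2 to 8, with sites in their 3′ untranslated regions. The method used here does not capture mature microRNAs. Both sequences are given because the targets were searched for these seeds, shown in capitals (RefSeq, GRCm38.p6).
miR-223-3p (chrX:96242884-96242905, plus strand): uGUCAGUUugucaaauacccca
miR-451a (chr11:78073186-78073207, plus strand): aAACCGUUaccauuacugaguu
The reverse complements of the seeds, AACTGAC for miR-223-3p and AACGGTT for miR-451a, were searched on the sense strand in the longest annotated 3′ untranslated region of each gene (GENCODE vM21, GRCm38). They occurred in 7 and 4 of the 15 targets, against 8.24% and 1.75% of 21028 genes. In all, 10 of the 15 had a match, Camk1d for both, and 5 (Macf1, Prkcb, Scd1, Ap2b1 and Mif) had none in the region searched. The lists were built from target databases, so such matches are no finding.

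The sites below belong to the targets with the highest level (Camk1d), with the most matches (Phf20l1) and with the smallest p (Sptssa). Capitals mark the bases that match the seed, and the strand is that of the gene.
Camk1d, miR-223-3p (chr2:5297735-5297756, minus strand): tcggaggaatctaaAACTGACg
Phf20l1, miR-223-3p (chr15:66642470-66642491, plus strand): tattttaatcagaaAACTGACa
Sptssa, miR-451a (chr12:54645461-54645482, minus strand): tgtattttttttaaAACGGTTt

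All 15 targets were tested in cluster 0, and 0 passed the adjusted threshold (smallest edgeR adjusted p = 0.995). Their median log2 fold change was -0.08, against 0.00 for all genes. Of the 15, 10 had a negative log2 fold change (66.7%, against 50% of all genes), and 1 was at p under 0.05 against 2.23% of all genes in that direction. Both NTP-treated mice lay below both untreated mice for 5 of them and above for 1, against 16.7% and 16.8% of all genes. The study chose the list on these same libraries, so its direction is no independent evidence.

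The study reported its targets as changed in B cells, CD4+ T cells or CD8+ T cells, most of them lower, and Mbnl1 as lower in both T cell types. Only part of the targets were reported for B cells, more of them lower than higher. The study tested single cells with MAST. The values here are for B cells of cluster 0 only, summed per mouse, so the cells and the unit differ from the study's. Mbnl1, a splicing regulator, had 761 and 793 CPM in NTP-treated mice, against 834 and 838 CPM in untreated mice. The groups did not overlap, but the log2 fold change of -0.11 was as large as its SE of 0.11 (edgeR adjusted p = 0.995). Camk1d, a calmodulin-dependent kinase and the most abundant target, had 1293 and 1248 CPM against 1521 and 1375 CPM (log2 fold change -0.19, SE 0.10). Macf1, which links actin to microtubules, had 515 and 539 CPM in NTP-treated mice and 604 and 596 CPM in untreated mice. Prkcb, the protein kinase C that relays B cell receptor signals, had 746 and 771 CPM against 819 and 842 CPM.

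Sptssa, whose small protein activates serine palmitoyltransferase in sphingolipid synthesis, was the target at p under 0.05. It had 47.2 and 42.4 CPM in NTP-treated mice, against 70.3 and 56.8 CPM in untreated mice (log2 fold change -0.48, SE 0.23), and its log2 fold change was 0.13 in cluster 1 and 0.25 in cluster 2. Rgs2, a regulator of G protein signalling, was the 1 target with both NTP-treated mice above, at 41.3 and 37.7 CPM against 28.5 and 33.9 CPM. Phf20l1, with 3 matches, had 193 and 179 CPM in NTP-treated mice and 198 and 183 CPM in untreated mice. The others, Rasa1, Celf1, Setd5, Scd1, Trappc6b, Ap2b1, Tnik and Mif, had overlapping groups and log2 fold changes from -0.17 to 0.14. Between clusters, the targets followed the span axis, with a median log2 ratio of 0.39 to cluster 1 and -0.37 to cluster 2.

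**Figure D5:**
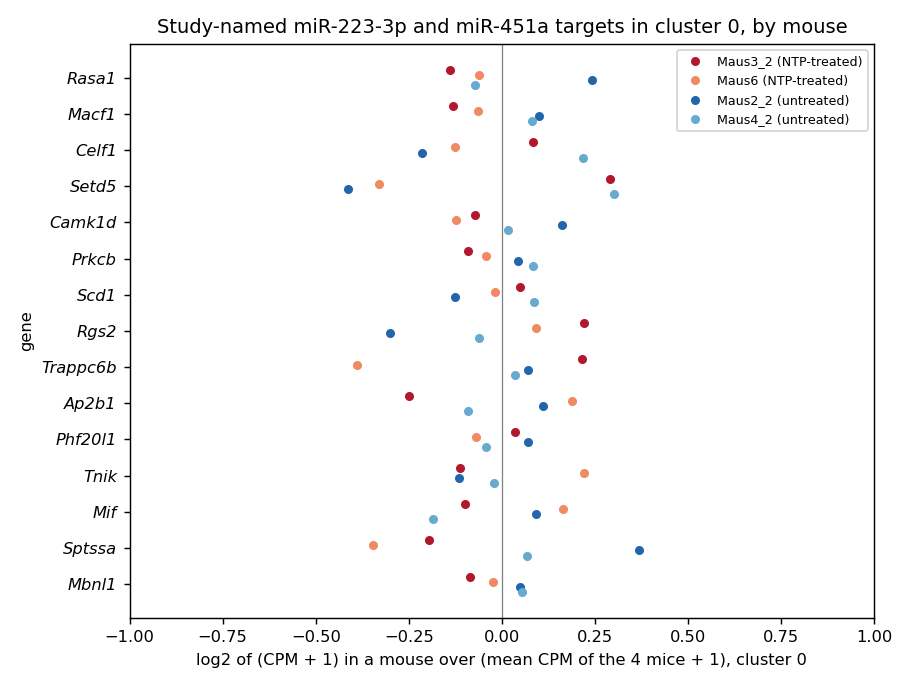
Level of the 15 targets named by the study, as log2 of a mouse's CPM plus 1 over the mean of the 4 mice plus 1, in cluster 0, with 1 point per mouse. Both NTP-treated mice lie below both untreated mice for 5 targets, Mbnl1 among them, against 16.7% of all genes, and 0 targets pass the adjusted threshold.

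Whether cluster 0 responded differently from the other B cells was tested as an interaction, with the mouse as a block. Of 8976 genes, 0 (0.00%) passed the adjusted threshold in edgeR, and 0 in DESeq2 with the same model. At an unadjusted p under 0.05 there were 505 (5.63%) in edgeR and 28 in DESeq2. The smallest p belonged to Arl15, a small GTPase gene. It had 117 and 148 CPM in cluster 0 of NTP-treated mice and 103 and 113 CPM in cluster 0 of untreated mice, while the other B cells had 97.3 and 90.9 CPM against 148 and 132 CPM (interaction 0.85, SE 0.21, edgeR adjusted p = 0.403). Slc9a3r1 (-1.65), Atp5b, a subunit of ATP synthase (-0.64), and Arfgef2 (1.05) were also among the 5 smallest p per direction, as were Gm26839, Zc3h12b and Gypc with positive and 1810058I24Rik, Thap2 and Rnf126 with negative interactions. All of these had an edgeR adjusted p of at least 0.403.

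The mix of the other B cells differed between the mice. Cluster 2 made up 34.2% and 19.5% of B cells in NTP-treated mice, against 47.0% and 30.7% in untreated mice, and the median percent of UMIs on genes of at least 100 kb in the pooled other B cells was 13.4 and 10.3 against 16.5 and 13.7. In that pool, the rank correlation across genes between span and treatment log2 fold change was -0.34 (8982 genes). It was -0.08 within cluster 0 (7565 genes), -0.15 within cluster 1 and -0.10 within cluster 2. With cluster 1 alone or cluster 2 alone in place of the pool, 0 genes passed the threshold again, and 405 and 428 had an unadjusted p under 0.05. The part of the cell mix in the interaction values was not tested beyond this.

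Single libraries stood apart in some genes in cluster 0. These genes were picked after their values were seen. Hist1h2ap, a histone gene of a family with near-identical copies, had 18.6 and 222 CPM in the NTP-treated Maus3_2 and Maus6 and 12.8 and 33.4 CPM in untreated mice, and Maus6 was also the highest in clusters 1 and 2 and in T cells. Genes with near-identical copies can gain or lose counts with the assignment of reads, so these values are uncertain. Hbb-bs, a haemoglobin chain of red blood cells, had 68 UMIs in Maus3_2 and 0 in Maus6, against 0 and 1 in untreated mice, and the 6 red blood cell markers in the table summed to 71.3 and 18.6 CPM in NTP-treated mice and 3.65 and 9.53 CPM in untreated mice. Maus3_2 also had the most Hbb-bs UMIs in clusters 1 and 2 and in CD8+ T cells. In CD4+ T cells it had 0, against 5 in Maus2_2. With all 4 mice, 0 red blood cell markers passed the filter on low counts in cluster 0. Hbb-bs was among the genes past the adjusted threshold without a filter, without Maus6, without Maus2_2 and without Maus4_2, and so is part of those counts.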

How the data were processed

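The authors deposited UMI counts per cell as whole numbers (15093 genes, 5794 cells) with a table of cluster, annotation, UMIs, genes and the percent of mitochondrial counts per cell. The submitters' processing notes name mm10, Cell Ranger 7.1.0 and Seurat 4.3.0, and the study's methods describe SoupX, filters on cells and DoubletFinder. No source used here says whether the deposited counts include SoupX. No doublet caller was run again. Replicates are separate mice (2 per group), and replicate numbers are only names. Deposited counts of cluster 0 cells (and of other B cells) were summed per mouse and scaled by TMM. edgeR 4.0.16 (R 4.3.3, filterByExpr, quasi-likelihood) gave p-values with Benjamini-Hochberg adjustment over all genes (threshold 0.05). Shares of UMIs and log2 ratios between clusters (CPM plus 5, minimum 50 CPM in either) were described per mouse. Gene spans come from GENCODE vM21 (GRCm38), which matched 14865 of 15093 symbols (98.5%). The functions were tested on simulated data. Alternatives were RLE scaling, DESeq2 1.42.0, limma-voom (limma 3.58.1), no filter, equal cells, thinning to 1500 UMIs, dropped gene classes, other references and leaving out each mouse. Members, gene lists and tests were chosen with earlier results of these data known.

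Named by rule were the 10 genes per direction with the smallest p and no overlap between groups, genes past the threshold, the 15 targets, the 5 smallest p per direction of the interaction, the 15 largest ratios per direction of cluster 0 to the other B cells, up to 4 of the most abundant members of each list, and subset genes. The same ranking with 10 genes per direction against each other cluster was added after values were seen, of which the text gives some. Immunoglobulin variable segments were not named. Some genes are not reported here.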

Additional observations from a re-analysis of the deposited data

How the results depend on the processing

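The count of 455 genes on 1 side of the other B cells in all 4 mice became 1787 with cluster 1 alone as the reference, 2094 with cluster 2 alone, 729 at a minimum of 25 CPM and 233 at 100 CPM. Leaving out a mouse gave 728 to 1217 genes, since 3 equal signs then suffice. The treatment count of 1 gene became 9 without a filter on low counts, 0 with equal cell numbers (252 at an unadjusted p under 0.05 in edgeR) and 0 with thinned cells (223), where fewer genes were tested. With a mouse left out it was 3 (without Maus6, and not with Gm42418) to 10 (without Maus3_2 or without Maus4_2), and 7 without Maus2_2. The lone mouse is then assumed to vary like the others. The difference in treatment effect stayed at 0 genes in its 9 alternatives. The share difference of 1.76 percentage points ran from -2.50 to 6.01 with a mouse left out (-2.35 without Maus6, -2.50 without Maus2_2), and the mitochondrial difference of 0.0568 percentage points from -0.121 to 0.234. The cause of these shifts was not tested.

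Log2 fold changes of 8 targets near 0 changed sign. With equal cell numbers, Celf1 had 0.025, Ap2b1 -0.084 and Mif -0.058. With thinned cells, Scd1 had -0.041, Trappc6b 0.036, Ap2b1 -0.061 and Phf20l1 0.053. Ap2b1, at 0.0006 in the report's fit, had -0.0025 with RLE scaling, -0.0097 with limma-voom, -0.018 with DESeq2 and -0.0027 without the dropped gene classes. With a mouse left out, the ranges were -0.25 to 0.19 for Celf1, -0.38 to 0.41 for Setd5, -0.076 to 0.14 for Scd1, -0.45 to 0.18 for Trappc6b, -0.24 to 0.19 for Ap2b1, -0.092 to 0.036 for Phf20l1, -0.045 to 0.29 for Tnik and -0.048 to 0.23 for Mif. No paired analysis was possible because the NTP-treated and untreated mice are different animals whose replicate numbers are only names. With 2 mice per group, exact tests over mice cannot go below p = 0.33.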
